A study of Homo sapiens with 27 samples.

Results

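Glycolysis splits glucose into pyruvate in the cytosol, and the pentose phosphate pathway branches off its first phosphorylated intermediate to make NADPH and ribose phosphate. Clear cell renal cell carcinomas (ccRCC) are known for loss of the VHL protein, stabilised hypoxia-inducible factors and high transcription of many glycolytic genes. The transcripts of 31 genes of these pathways were followed here in 786-O cells, a VHL-deficient human ccRCC line, after CRISPR-Cas9 mutagenesis of the histone H3 lysine 4 demethylase gene *KDM5C* and of its Y-linked paralogue *KDM5D*. The 31 genes were chosen by name, as the identifiers of the count table that carry their symbols, and all 31 were found among its 57773 identifiers and passed the filter on low counts. They cover glucose uptake, the hexose and triose phases of glycolysis, the enzymes that set fructose-2,6-bisphosphate, the fates of pyruvate, monocarboxylate transport and the pentose phosphate pathway.

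Bulk RNA sequencing had been performed on 27 libraries, 3 of each of 9 populations: a control with a non-targeting guide (sgCtrl), 2 with a *KDM5C* guide (sgKDM5C_4 and sgKDM5C_5), 2 with a *KDM5D* guide (sgKDM5D_2 and sgKDM5D_4), and 4 double mutants that carry a guide for each gene (sgKDM5C_4_sgKDM5D_2, sgKDM5C_4_sgKDM5D_4, sgKDM5C_5_sgKDM5D_2 and sgKDM5C_5_sgKDM5D_4). All 9, the control included, had received a lentivirus that carries Cas9 and a guide and had been selected as mixed populations rather than clones. A change in every cell and a larger change in some of the cells therefore cannot be told apart. The labels do not say whether the 3 libraries of a population came from separate cultures, so the p-values measure the spread between these libraries, which may be technical.

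Total counts ranged from 20172482 to 43383929 per library. *KDM5C* had log2 fold changes of -1.91 to -1.51 against sgCtrl in the 6 populations with a *KDM5C* guide and of 0.03 and -0.09 in the sgKDM5D populations, whereas the *KDM5D* transcript was higher than in sgCtrl in all 8 mutant populations (log2 fold changes 0.64 to 1.80) and so did not check the sgKDM5D labels. *PAX8*, *KRT8* and *VIM*, markers of the line, were at 254 CPM (counts relative to the TMM-scaled library total) or more in every library, and *HBB*, *HBA1*, *CD3E* and *LYZ* held at most 1 count per library. On the leading component of the deviations from the population means, the 27 libraries scored from -11.9 to 17.6. The 4 highest (sgCtrl replicate 2, sgKDM5C_5 replicate 2, sgKDM5C_4_sgKDM5D_2 replicate 1 and sgKDM5C_4_sgKDM5D_4 replicate 3) scored 11.2 to 17.6 and the next 6.47, while sgKDM5C_5 replicate 1 (-11.9), sgCtrl replicate 1 (-11.4) and sgKDM5C_5_sgKDM5D_2 replicate 2 (-10.8) were about as far from 0 on the other side. The median gene of the 31 deviated from its population mean by -0.102, -0.0706, -0.106 and -0.0426 (log2) in these 4, and by -0.0602 to 0.056 in the other 23. Calls that change when the 4 highest-scoring libraries are left out, a choice made after seeing the scores, are given beside their values. Mitochondrial genes took 7.165%, 6.754% and 5.549% of the counts in sgKDM5C_5_sgKDM5D_2, above every other library (3.939% to 5.446%).

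The 31 transcripts together took 1.98% to 2.52% of the counts of a library. Per length of the annotated canonical transcript, the control population carried most *ENO1*, the main enolase (2410 ± 189 RPKM, which is CPM over length in kilobases; SD, n = 3), *GAPDH* (2277 ± 152), the pyruvate kinase gene *PKM* (1825 ± 133) and the aldolase gene *ALDOA* (1153 ± 68.6). The ranges of *ENO1* and *GAPDH* over the control libraries overlapped, and those of *PKM* and *ALDOA* lay below them. *TPI1* and *LDHA* followed at 831 ± 75.5 and 771 ± 54.1 RPKM, again with overlapping ranges. At the other end lay *PFKFB2* (1.98 ± 0.171), the pyruvate dehydrogenase kinase gene *PDK1* (1.39 ± 0.296), *TIGAR* (2.15 ± 0.185), *ALDOC* (2.15 ± 0.345) and the glucose transporter gene *SLC2A3* (3.10 ± 0.114). These levels depend on the transcript length assumed, which was 14072 bases for *PDK1* and 1285 for *GAPDH*. The other 20 genes lay between these in the control.

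Calls were made with edgeR's quasi-likelihood test across 17016 genes, with 2 conditions, an adjusted p below 0.001 and more than a 1.5-fold change. Genes that met both are called higher or lower here. Over the 8 comparisons of a mutant population with sgCtrl, 12 of the 31 genes were called at least once, where 32.4% of all tested genes were, and 6 in 2 or more comparisons, where 13.8% were; 19 were never called, and no gene was called in both directions. The 22 calls of 248 possible divided into 11 higher and 11 lower. In sgKDM5C_4, 0 of the 31 genes were called, where 3.21% of all tested genes were called higher and 1.77% lower; 12 of the 31 had an unadjusted p under 0.05 by edgeR and 12 by DESeq2, which also called 0. In sgKDM5C_5, *SLC2A3* and *PFKFB4* were called higher and 0 lower, against 2.03% and 2.97% of all genes. In sgKDM5D_2, 0 genes were called by edgeR and by DESeq2, against 1.89% higher and 1.34% lower, with 17 unadjusted p-values under 0.05 by each tool. In sgKDM5D_4, *PFKFB4* and *PDHB* were called higher and *ALDOA* and *ALDOC* lower, against 10.7% and 7.44% of all genes.

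The double mutants had 2 to 5 calls each. In sgKDM5C_4_sgKDM5D_2, *HK2* was called higher and *ENO2*, *PC* and *SLC16A3* lower, against 3.83% and 2.23% of all genes. In sgKDM5C_4_sgKDM5D_4, *PFKL* was called higher and *PFKFB2*, *ENO2*, *PC* and *SLC16A3* lower, against 5.86% and 3.24%. In sgKDM5C_5_sgKDM5D_2, *SLC2A3* was called higher and *SLC16A3* lower, against 7.92% and 4.77%. In sgKDM5C_5_sgKDM5D_4, *SLC2A3*, *HK2*, *PFKFB4* and *LDHA* were called higher and *SLC16A3* lower, against 3.3% and 3.87%. All 8 comparisons share the 3 control libraries, so a pattern common to them is not repeated evidence.

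**Figure D1:**
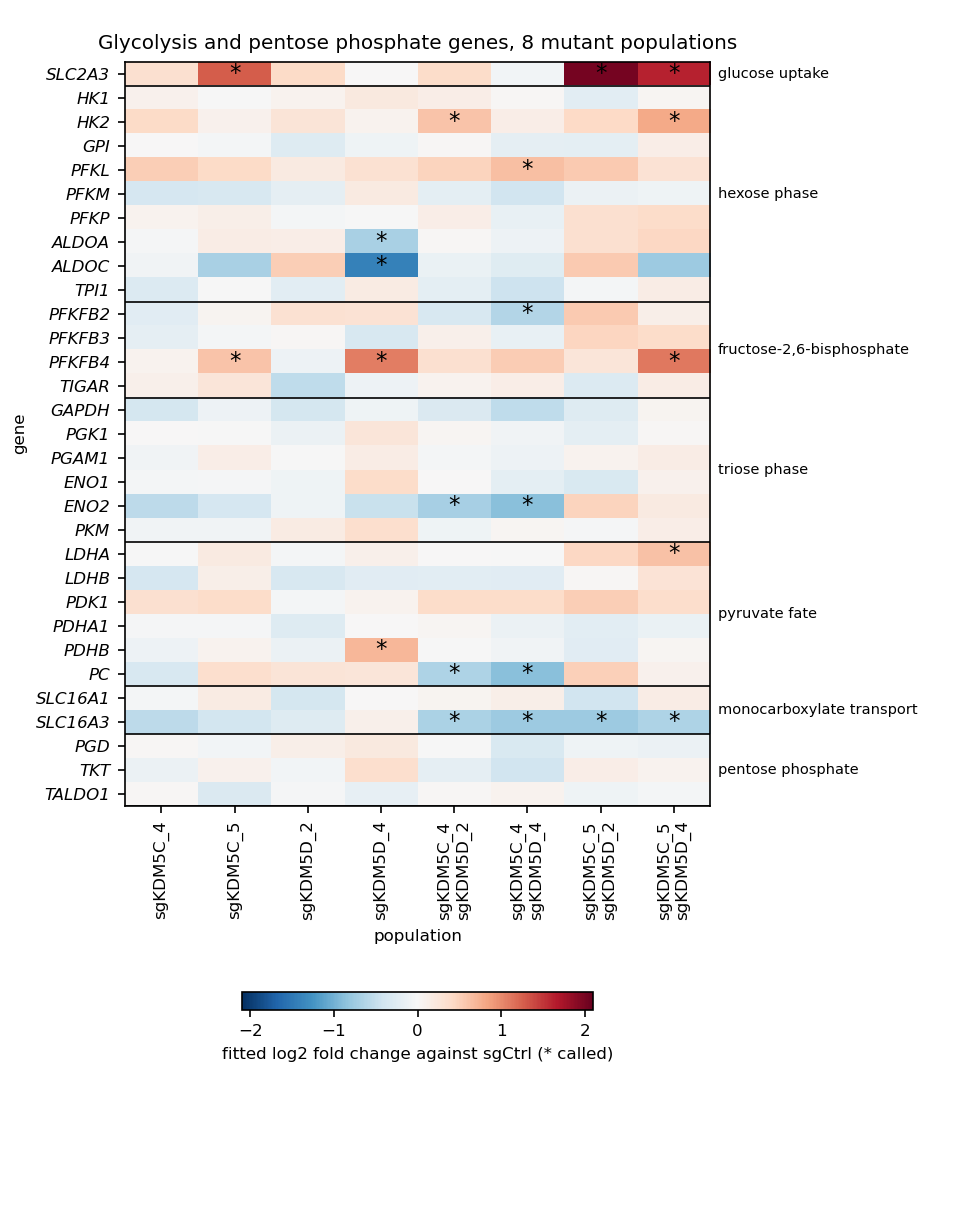
Fitted log2 fold change of the 31 genes (rows, grouped by role) in the 8 mutant populations against sgCtrl (columns), from blue (lower) to red (higher), with an asterisk at each of the 22 calls. *SLC2A3* is highest in the 3 columns that carry sgKDM5C_5 and *SLC16A3* is called in the 4 double mutant columns.

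With a threshold of adjusted p under 0.05 and no minimum change, the number of the 31 genes that passed was 12 in sgKDM5C_4 (24% of all tested genes passed), 11 in sgKDM5C_5 (21.4%), 11 in sgKDM5D_2 (22%), 17 in sgKDM5D_4 (47.6%), 12 in sgKDM5C_4_sgKDM5D_2 (24.9%), 15 in sgKDM5C_4_sgKDM5D_4 (35.7%), 20 in sgKDM5C_5_sgKDM5D_2 (44.5%) and 12 in sgKDM5C_5_sgKDM5D_4 (28.9%). The part of the mitochondrial share of sgKDM5C_5_sgKDM5D_2 in its values, those of *SLC2A3* included, was not tested. The changes were small ones: the median absolute log2 change of the 31 genes was 0.10 to 0.29 in these comparisons, and that of all tested genes 0.20 to 0.36. Their signed medians lay between -0.13 (sgKDM5C_4_sgKDM5D_4) and 0.14 (sgKDM5C_5_sgKDM5D_4), against -0.0128 to 0.0172 for all genes.

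*SLC2A3*, which encodes the high-affinity glucose transporter GLUT3, had the largest change of the 31 genes. It was at 11.6, 11.6 and 12.4 CPM in sgCtrl, at 32.6, 25.7 and 27.4 in sgKDM5C_5, at 51.0, 50.9 and 41.1 in sgKDM5C_5_sgKDM5D_2 and at 35.1, 36.4 and 37.7 in sgKDM5C_5_sgKDM5D_4. Every library with sgKDM5C_5 was above every other library of the series. The other populations gave 15.6, 15.2 and 14.2 CPM (sgKDM5C_4), 16.9, 15.9 and 14.3 (sgKDM5D_2), 11.8, 11.8 and 12.3 (sgKDM5D_4), 13.6, 16.6 and 16.1 (sgKDM5C_4_sgKDM5D_2) and 10.6, 12.3 and 11.2 (sgKDM5C_4_sgKDM5D_4). The log2 fold change was 1.26 ± 0.10 (SE; adjusted p = 3.54e-10) in sgKDM5C_5, 2.01 ± 0.10 (6e-14) in sgKDM5C_5_sgKDM5D_2 and 1.62 ± 0.10 (1.93e-12) in sgKDM5C_5_sgKDM5D_4, or 2.40-, 4.02- and 3.07-fold. In sgKDM5C_4 and sgKDM5D_2 it was 0.34 and 0.41, with adjusted p of 0.0149 and 0.00537. *SLC2A3* lies at chr12:8071826-8171603 (GRCh37, minus strand). Its near-identical copy *SLC2A14* held 4 counts over the 27 libraries, and how reads shared by such copies were counted is not given in the sources used here.

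In the hexose phase, 4 of 9 genes were called at least once, where 32.4% of all tested genes were, with 3 calls higher and 2 lower. Hexokinase phosphorylates glucose on entry, and *HK2* is its inducible form. *HK2* was at 71.8, 68.7 and 70.6 CPM in sgCtrl, at 118, 125 and 123 in sgKDM5C_5_sgKDM5D_4 and at 97.5, 113 and 110 in sgKDM5C_4_sgKDM5D_2, with all 6 of these mutant libraries above the control libraries. It rose 1.73-fold (log2 0.79 ± 0.08, adjusted p = 2.22e-08) in the former and 1.52-fold (0.60 ± 0.08, 2.63e-06) in the latter, where the call was lost without replicate 2 or replicate 3 of the mutant population and with no filter on low counts (log2 fold changes of 0.56 to 0.66 over all alternatives). The other populations held 96.3, 93.6 and 89.1 CPM (sgKDM5C_4), 85.1, 68.6 and 70.8 (sgKDM5C_5), 91.1, 83.3 and 79.4 (sgKDM5D_2), 68.4, 72.1 and 81.9 (sgKDM5D_4), 71.0, 78.5 and 82.4 (sgKDM5C_4_sgKDM5D_4) and 92.8, 95.5 and 93.4 (sgKDM5C_5_sgKDM5D_2). Of these, sgKDM5C_4, sgKDM5D_2 and sgKDM5C_5_sgKDM5D_2 passed an adjusted p of 0.05, at log2 fold changes of 0.40, 0.27 and 0.42. *HK1*, the constitutive hexokinase, lay between -0.22 and 0.20.

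*PFKL* encodes the liver-type subunit of phosphofructokinase, the main regulated step of glycolysis. It was at 125, 119 and 126 CPM in sgCtrl and at 187, 199 and 186 in sgKDM5C_4_sgKDM5D_4, where it rose 1.55-fold (log2 0.63 ± 0.07, adjusted p = 9.18e-08). Its log2 fold change was above 0 in all 8 populations and passed an adjusted p of 0.05 in 7. In sgKDM5D_2 it was 0.19 (adjusted p = 0.0556 by edgeR). The muscle-type subunit gene *PFKM* gave -0.41 to 0.19 and the platelet-type *PFKP*, the most abundant of the 3 by RPKM, -0.16 to 0.39; neither was called. *GPI*, which interconverts glucose and fructose phosphates, gave -0.28 to 0.14, and *TPI1*, which interconverts the triose phosphates, -0.44 to 0.18.

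Both aldolase genes fell in sgKDM5D_4. *ALDOA* was at 1922, 1767 and 1985 CPM in sgCtrl and at 1230, 1174 and 1125 in sgKDM5D_4, 1.61-fold lower (log2 -0.69 ± 0.07, adjusted p = 4.13e-09). *ALDOC*, the brain-type isoenzyme, was at 3.29, 3.01 and 4.08 CPM in sgCtrl and at 0.668, 1.26 and 1.93 in sgKDM5D_4, 2.68-fold lower (-1.42 ± 0.25, 3.11e-05). In the other populations *ALDOC* ran from 1.5 to 6.33 CPM: 3.22, 3.23 and 3.40 (sgKDM5C_4), 2.61, 2.21 and 1.75 (sgKDM5C_5), 6.33, 4.27 and 4.25 (sgKDM5D_2), 2.87, 3.40 and 3.10 (sgKDM5C_4_sgKDM5D_2), 2.59, 3.20 and 2.93 (sgKDM5C_4_sgKDM5D_4), 4.29, 5.94 and 4.96 (sgKDM5C_5_sgKDM5D_2) and 1.5, 2.42 and 2.19 (sgKDM5C_5_sgKDM5D_4). The libraries of sgKDM5C_5, sgKDM5D_4 and sgKDM5C_5_sgKDM5D_4 lay below the control libraries and those of sgKDM5D_2 and sgKDM5C_5_sgKDM5D_2 above them, with the call made in sgKDM5D_4 alone, and it was lost when only the populations compared were fitted. *ALDOC* counts were as low as 15 per library, and the gene overlaps *RSKR* on its own strand.

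Fructose-2,6-bisphosphate activates phosphofructokinase. The bifunctional enzymes of the PFKFB family make and degrade it, and *TIGAR* encodes a phosphatase that lowers it. *PFKFB4* was at 28.7, 27.7 and 23.6 CPM in sgCtrl, at 44.7, 53.9 and 69.2 in sgKDM5D_4, at 56.1, 60.7 and 56.3 in sgKDM5C_5_sgKDM5D_4 and at 44.3, 33.6 and 42.8 in sgKDM5C_5. All of these libraries were above the control libraries, and the 3 of sgKDM5D_4 spread most. *PFKFB4* rose in sgKDM5D_4 (log2 1.07 ± 0.12, adjusted p = 4.55e-08) and by 2.16-fold in sgKDM5C_5_sgKDM5D_4 (1.11 ± 0.12, 8.11e-08). The change in sgKDM5C_5 (1.51-fold, 0.59 ± 0.12, 0.000704) sat at the fold threshold, and 13 of 15 alternatives lost that call, the removal of any library of sgCtrl and of sgKDM5C_5 replicate 1 or 3 among them. The remaining populations gave 30.7, 25.6 and 28.4 CPM (sgKDM5C_4), 24.1, 25.3 and 24.7 (sgKDM5D_2), 29.4, 34.5 and 36.8 (sgKDM5C_4_sgKDM5D_2), 40.2, 39.0 and 36.9 (sgKDM5C_4_sgKDM5D_4; log2 0.54, adjusted p = 0.00103) and 29.5, 34.0 and 32.1 (sgKDM5C_5_sgKDM5D_2). *PFKFB4* overlaps *UCN2* on the same strand, which held 397 to 1239 counts per library.

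*PFKFB2* was at 13.3, 15.4 and 13.3 CPM in sgCtrl and at 7.58, 9.91 and 9.82 in sgKDM5C_4_sgKDM5D_4, 1.54-fold lower (log2 -0.62 ± 0.11, adjusted p = 0.000111). That call was lost without sgCtrl replicate 2, without sgKDM5C_4_sgKDM5D_4 replicate 1, when only the populations compared were fitted, and without the 4 highest-scoring libraries. In sgKDM5C_5_sgKDM5D_2 its log2 fold change was 0.55 with an adjusted p of 0.000249. There *PFKFB2* and *PDK1* were called higher without the 4 libraries. *PFKFB3*, the isoform that favours synthesis, was at 205 to 373 CPM over all libraries and was not called. Its log2 fold changes passed an adjusted p of 0.05 at -0.19 in sgKDM5C_4 and -0.33 in sgKDM5D_4 and at 0.45 and 0.38 in sgKDM5C_5_sgKDM5D_2 and sgKDM5C_5_sgKDM5D_4. *TIGAR* gave -0.54 in sgKDM5D_2 (adjusted p = 0.00549) and -0.29 to 0.25 elsewhere.

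In the triose phase, *ENO2* was called lower in 2 populations, and *GAPDH*, *PGK1*, *PGAM1*, *ENO1* and *PKM* in none. The share of all tested genes called at least once was 32.4%. *GAPDH*, which oxidises glyceraldehyde-3-phosphate and is often used as a reference transcript, was at 3041, 2700 and 3036 CPM in sgCtrl. It was at 2269, 2343 and 2208 CPM in sgKDM5C_4, 2645, 2638 and 2884 in sgKDM5C_5, 2135, 2370 and 2259 in sgKDM5D_2 and 2841, 2680 and 2696 in sgKDM5D_4. The double mutants held 2252, 2437 and 2428 (sgKDM5C_4_sgKDM5D_2), 2002, 2073 and 1970 (sgKDM5C_4_sgKDM5D_4), 2522, 2511 and 2207 (sgKDM5C_5_sgKDM5D_2) and 2950, 3160 and 3030 (sgKDM5C_5_sgKDM5D_4). All libraries of sgKDM5C_4, sgKDM5D_2 and of all double mutants but sgKDM5C_5_sgKDM5D_4 lay below the lowest control library. Their log2 fold changes were -0.36, -0.38, -0.30, -0.54 and -0.28 (SE 0.06 in each; adjusted p = 9.43e-05, 9.58e-05, 0.000647, 1.81e-07 and 0.000753), under the 1.5-fold threshold, and in the other 3 populations they were -0.10, -0.10 and 0.06.

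*ENO2*, the neuronal enolase, was at 66.6, 55.1 and 66.6 CPM in sgCtrl, at 36.1, 41.5 and 38.5 in sgKDM5C_4_sgKDM5D_2 and at 34.3, 37.1 and 31.6 in sgKDM5C_4_sgKDM5D_4. It fell 1.62-fold in the former (log2 -0.70 ± 0.09, adjusted p = 8.12e-07) and 1.83-fold in the latter (-0.87 ± 0.09, 1.33e-08). In sgKDM5C_4 it was at 42.5, 43 and 42.7 CPM (-0.55, 2.72e-05), under the fold threshold, and it was called there without sgCtrl replicate 2, the lowest control library, and without the 4 libraries. It was also low in sgKDM5D_4 (43.2, 45.2 and 47.3 CPM; -0.47) and sgKDM5C_5 (51.0, 47.9 and 47.9; -0.36), near the control in sgKDM5D_2 (60.0, 59.1 and 57.0) and high in sgKDM5C_5_sgKDM5D_2 (87.6, 98.8 and 74.1; 0.47, adjusted p = 7.31e-05), with 70.1, 71.7 and 73.9 in sgKDM5C_5_sgKDM5D_4. *ENO2* overlaps *LRRC23* on the same strand, which held 88 to 208 counts per library.

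The other genes of this phase changed little. *ENO1* ran from -0.32 (sgKDM5C_5_sgKDM5D_2) to 0.39 (sgKDM5D_4), *PGK1*, which yields ATP, from -0.20 to 0.26, *PGAM1* from -0.10 to 0.16, and *PKM*, whose product makes pyruvate, from -0.09 to 0.35. The highest value of *ENO1*, *PGK1* and *PKM* was that of sgKDM5D_4 in each case (adjusted p = 1.12e-05, 0.000204 and 8.53e-05). *GAPDH*, *ENO1*, *PGK1* and *PGAM1* have processed copies elsewhere in the genome with which their reads could be shared.

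Among the genes of pyruvate fate, *LDHA* and *PDHB* were each called higher once and *PC* lower in 2 populations, with 0 calls for *LDHB*, *PDK1* and *PDHA1*. Again, 32.4% of all tested genes were called at least once. *PC* encodes pyruvate carboxylase, which makes oxaloacetate from pyruvate in mitochondria. It was at 18.5, 15.7 and 19.6 CPM in sgCtrl, at 9.89, 11.7 and 12.9 in sgKDM5C_4_sgKDM5D_2 and at 9.59, 10 and 9.57 in sgKDM5C_4_sgKDM5D_4. It fell 1.56-fold (log2 -0.65 ± 0.10, adjusted p = 2.83e-05) and 1.84-fold (-0.88 ± 0.10, 1.75e-07) there, and the former call was lost without replicate 1 of that population. In sgKDM5C_4 it was at 14.6, 13.7 and 14.5 CPM (-0.33). The populations with sgKDM5C_5 or a *KDM5D* guide alone held 26.5, 21.2 and 21.4 CPM (sgKDM5C_5), 22.3, 22.1 and 20.6 (sgKDM5D_2), 20, 22.7 and 21.5 (sgKDM5D_4), 26.1, 26.4 and 23.5 (sgKDM5C_5_sgKDM5D_2; log2 0.50, adjusted p = 0.000194) and 20.2, 19.4 and 18 (sgKDM5C_5_sgKDM5D_4). Every library with sgKDM5C_4 lay below every other library.

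*LDHA* encodes the lactate dehydrogenase subunit that favours lactate. It was at 1722, 1610 and 1853 CPM in sgCtrl and at 2645, 2678 and 2649 in sgKDM5C_5_sgKDM5D_4, where it rose 1.54-fold (log2 0.62 ± 0.06, adjusted p = 5.55e-09), a call lost without sgCtrl replicate 2 and without the 4 libraries. In sgKDM5C_5_sgKDM5D_2 it was at 2430, 2332 and 2247 CPM, also above the control libraries (0.43, adjusted p = 1.36e-06). *LDHB* gave -0.35 to 0.29.

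*PDHB*, a subunit gene of pyruvate dehydrogenase, was at 36.8, 33.2 and 40.2 CPM in sgCtrl and at 62.6, 58.1 and 57.1 in sgKDM5D_4, 1.62-fold higher (log2 0.69 ± 0.07, adjusted p = 1.63e-08). No library of the other 7 mutant populations left the range of 30.6 to 40.1 CPM: they held 34.2, 35.9 and 32.6 (sgKDM5C_4), 38.2, 37.6 and 40.1 (sgKDM5C_5), 30.7, 35.5 and 34.9 (sgKDM5D_2), 36.4, 36.6 and 36.3 (sgKDM5C_4_sgKDM5D_2), 35.4, 35.6 and 33.4 (sgKDM5C_4_sgKDM5D_4), 30.6, 31.2 and 31.6 (sgKDM5C_5_sgKDM5D_2) and 39.8, 39.5 and 34.6 (sgKDM5C_5_sgKDM5D_4). *PDHA1*, the partner subunit gene, ran from -0.26 to 0.03. *PDK1*, whose kinase inhibits pyruvate dehydrogenase, gave 0.34 to 0.52 in the 6 populations with a *KDM5C* guide (adjusted p = 0.0011 to 0.0408) and -0.05 and 0.08 in the sgKDM5D populations, under the fold threshold throughout. The control libraries, shared by these comparisons, spread widely for *PDK1*, at 16.0, 24.2 and 18.7 CPM. Of the 6 populations, only sgKDM5C_5_sgKDM5D_2 and sgKDM5C_5_sgKDM5D_4 had every library above them.

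Promoter sequence was looked up for these genes because many glycolytic promoters carry the element that hypoxia-inducible factors bind. The motif ACGTG was searched on both strands of RefSeq promoters (GRCh38.p14), 300 bases from 250 before to 50 after each listed start. 28 of the 31 genes matched the table, with 56 promoters, and *SLC2A3*, *SLC16A1* and *PFKFB2* were not in it. The motif was in 22 of the 56 promoters (39.3%) and in 21.4% of all 35116, and the palindrome CACGTG, which holds the motif on each strand, was in 7 (12.5%) and in 7.26%. 8 of 10 matched genes that were called had the motif in at least 1 promoter, as had 10 of 18 that were not. These are counts of genes, some with several promoters, so the 21.4% of promoters is not a share to set beside them. The stretches of *LDHA* and *PC* are shown as the called genes whose stretch, around the matches upstream of the start farthest 5′, overlapped no annotated exon. Both sequences occur in GRCh37, the build of the counts, *LDHA* at chr11:18415913-18416053 (plus strand, 197 to 57 bases before the start, written as -197 to -57) and *PC* at chr11:66726001-66726050 (minus strand, -196 to -147). They are given 5′ to 3′ with each match in capitals (CACGT is ACGTG read on the other strand).
LDHA: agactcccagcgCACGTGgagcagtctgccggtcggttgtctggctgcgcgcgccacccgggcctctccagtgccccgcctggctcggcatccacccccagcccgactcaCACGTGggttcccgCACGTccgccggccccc
PC: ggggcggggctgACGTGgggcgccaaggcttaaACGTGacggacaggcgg
Both stretches hold the motif more than once, and the genes changed in different populations and in opposite directions. A match is a description of the letters, and binding was not measured here.

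*SLC16A3* encodes MCT4, which exports lactate, and was the only one of the 31 genes called in all 4 double mutants. It was at 524, 510 and 509 CPM in sgCtrl and at 310, 325 and 341 in sgKDM5C_4_sgKDM5D_2, 316, 306 and 284 in sgKDM5C_4_sgKDM5D_4, 315, 302 and 288 in sgKDM5C_5_sgKDM5D_2 and 296, 343 and 343 in sgKDM5C_5_sgKDM5D_4. The highest of these 12 libraries was below the lowest control library. The fall was 1.58-, 1.71-, 1.70- and 1.57-fold (log2 -0.66, -0.77, -0.77 and -0.65, SE 0.08 in each, adjusted p = 1.76e-07, 8.98e-09, 8.03e-09 and 1.88e-07). The single mutants held 353, 368 and 332 CPM (sgKDM5C_4; -0.55, adjusted p = 3.82e-06), 412, 380 and 384 (sgKDM5C_5; -0.39, 0.000299), 379, 489 and 410 (sgKDM5D_2; -0.27, 0.00986) and 569, 550 and 545 (sgKDM5D_4; 0.11, 0.246). In sgKDM5C_4 the change was under 1.5-fold, and it was called without replicate 2 of that population. *SLC16A1*, the gene of the more widely expressed MCT1, was not called and ran from -0.40 (sgKDM5C_5_sgKDM5D_2) to 0.17.

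The 3 genes of the pentose phosphate pathway had 0 calls in the 8 comparisons by edgeR, where 32.4% of all tested genes were called at least once, and 0 by DESeq2. *PGD*, which encodes the NADPH-producing phosphogluconate dehydrogenase, ran from -0.32 to 0.20, the transketolase gene *TKT* from -0.40 to 0.36 and the transaldolase gene *TALDO1* from -0.30 to 0.08. 4 of their 24 changes passed an adjusted p of 0.05, as did 21.4% to 47.6% of all tested genes in the 8 comparisons. They were *PGD* (-0.32) and *TKT* (-0.40) in sgKDM5C_4_sgKDM5D_4, *TKT* (0.36) in sgKDM5D_4 and *TALDO1* (-0.30) in sgKDM5C_5.

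**Figure D2:**
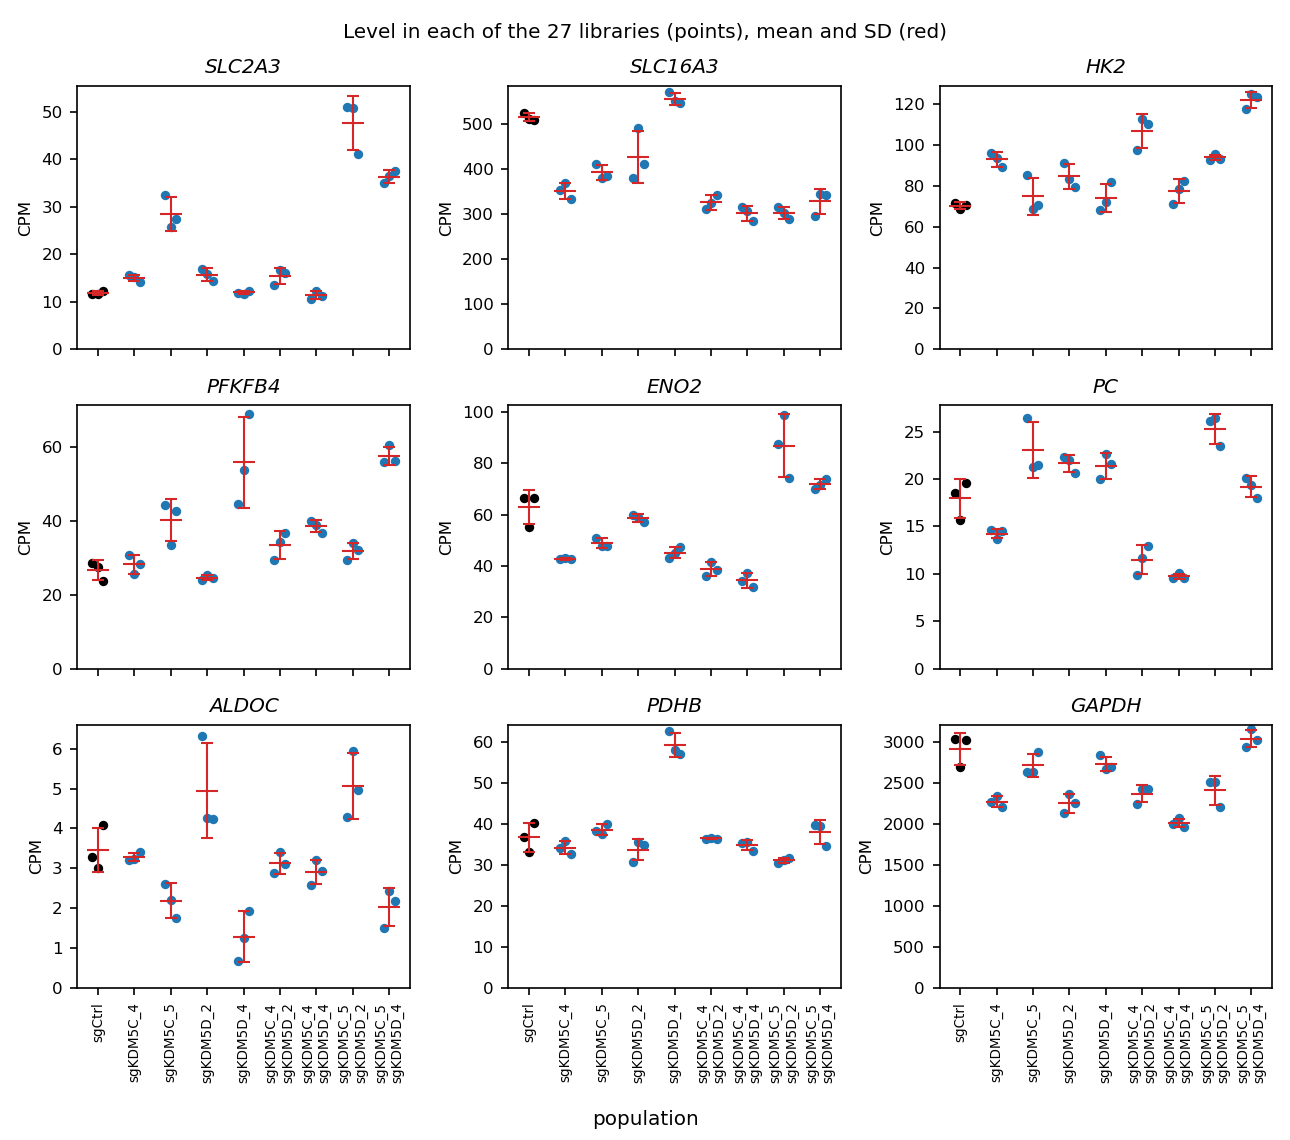
Level in CPM (vertical axis, from 0) of 9 genes in the 27 libraries, by population (horizontal axis): points are libraries, black for sgCtrl, and red bars the mean and SD of 3. *SLC2A3* is between 25.7 and 51.0 CPM in the libraries with sgKDM5C_5 and between 10.6 and 16.9 in all others.

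The balance between isoenzymes was described as the ratio of their CPM within a library, which needs no scaling between libraries and was not tested. *SLC16A3* to *SLC16A1* was 3.34, 2.67 and 3.35 in sgCtrl, 2.93 to 3.85 in the sgKDM5D populations and 1.38 to 2.71 in the 18 libraries with a *KDM5C* guide, of which sgKDM5C_5_sgKDM5D_2 replicate 2 (2.71) alone overlapped the control. *PFKM* to *PFKL* was 0.755, 0.655 and 0.705 in sgCtrl and 0.324 to 0.589 in the libraries with a *KDM5C* guide, all below the control, with 0.524 to 0.568 in sgKDM5D_2 and 0.606 to 0.692 in sgKDM5D_4. *HK2* to *HK1* was 0.291, 0.328 and 0.303 in sgCtrl and highest on average in sgKDM5C_5_sgKDM5D_4 (0.493, 0.516 and 0.538). *LDHA* to *LDHB* was 2.35, 2.59 and 2.45 in sgCtrl and 2.82 or more in every mutant library outside sgKDM5C_5. *ENO2* to *ENO1* was 0.0146, 0.0141 and 0.0151 in sgCtrl, 0.00739 to 0.00856 in sgKDM5D_4 and 0.0222 to 0.0280 in sgKDM5C_5_sgKDM5D_2. *PFKP* to *PFKL* was 6.68, 6.4 and 6.51 in sgCtrl and lowest in sgKDM5C_4_sgKDM5D_4 (4.03, 3.72 and 3.58), and *ALDOC* to *ALDOA* averaged 0.00182 in sgCtrl and 0.00111 in sgKDM5D_4.

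**Figure D3:**
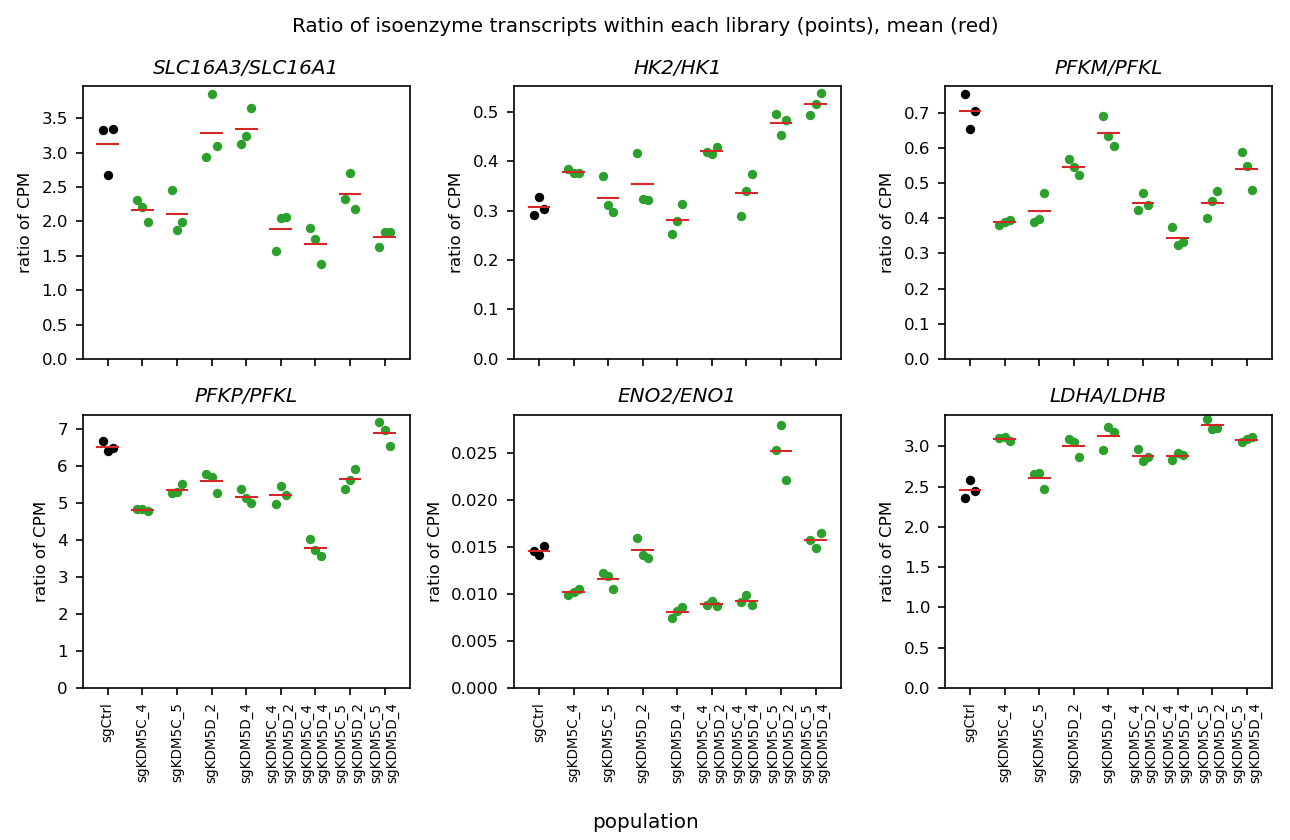
Ratio of the CPM of 6 pairs of isoenzyme or transporter genes (vertical axis, from 0) in each of the 27 libraries by population (horizontal axis), with points for libraries, black for sgCtrl, and red lines for means. The *PFKM* to *PFKL* ratio lies below the 3 control values in all libraries with a *KDM5C* guide. It also does so in all libraries of sgKDM5D_2 (0.524 to 0.568) and in replicates 2 and 3 of sgKDM5D_4 (0.634 and 0.606).

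Neighbouring genes on a chromosome moved together in some of these populations, so the median log2 fold change of the 50 nearest tested genes was set beside each value. It ran from -0.43 to 0.53 over the 248 pairs of gene and comparison and from -0.35 to 0.37 over the 22 calls. It had the sign of the gene itself in 17 of the 22 calls and in 154 of all 248 pairs. Near *SLC16A3*, at chr17:80175810-80219005 (GRCh37), it was -0.28, -0.35, -0.26 and -0.22 in the 4 double mutants, -0.26 in sgKDM5C_4, -0.21 in sgKDM5C_5 and -0.28 in sgKDM5D_4, where *SLC16A3* was not lower. The difference of *SLC16A3* from its neighbours was -0.38, -0.42, -0.51 and -0.43 in the double mutants, under the 1.5-fold threshold. In sgKDM5D_4, the neighbours of *PDHB* (chr3:58413357-58419584) had a median of 0.31 and those of *ALDOA* (chr16:30075485-30081778) of -0.29, and both calls were lost once these were subtracted. Those of *PFKFB4* (chr3:48555117-48599448) had 0.37, which left 0.70 for the gene. For *SLC2A3* the neighbours had 0.07, 0.23 and 0.13 in the 3 sgKDM5C_5 populations, for *HK2* -0.06 and -0.09, for *PC* 0.09 and -0.02, for *ENO2* -0.03 and -0.15 and for *ALDOC* 0.14, smaller in size than the called changes of these genes. The calls of *LDHA* (neighbours 0.08) and *PFKL* (0.16) were lost after subtraction. Copy number was not measured here, and its part in these values was not tested.

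The 2 guides of each gene were compared directly, without the control libraries. Between the *KDM5C* guides, *SLC2A3* was 1.90-fold higher (log2 0.92 ± 0.10, adjusted p = 9.06e-08) and *PC* 1.62-fold higher (0.69 ± 0.10, 1.07e-05) in sgKDM5C_5 than in sgKDM5C_4, and 0 of the 31 genes were lower, against 0.74% and 2.97% of all genes; the *PC* call was lost without sgKDM5C_5 replicate 1, and *PFKFB4* was called too without the 4 libraries. With an adjusted p under 0.05 alone, 11 of the 31 genes differed, where 16.2% of all genes did. Between the *KDM5D* guides, *PFKFB4* (2.27-fold, 1.18 ± 0.12, 8.2e-09) and *PDHB* (1.76-fold, 0.82 ± 0.07, 8.22e-10) were higher in sgKDM5D_4 than in sgKDM5D_2, and *ALDOA* (1.77-fold, -0.82 ± 0.07, 1.24e-10) and *ALDOC* (3.84-fold, -1.94 ± 0.24, 1.72e-07) were lower, against 11.7% and 9.1% of all genes. Once the median of the neighbours was subtracted, the calls of *ALDOA* (-0.30) and *PDHB* (0.51) were lost and *TPI1* and *SLC16A3* were called higher. At an adjusted p under 0.05, 21 of the 31 differed, and 51.8% of all genes.

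Adding the other guide was tested on the means of populations. The 4 double mutants against the 2 sgKDM5C populations gave 0 calls by edgeR and by DESeq2, against 1.27% of all genes higher and 0.347% lower, with 14 unadjusted p-values under 0.05 by each tool, and 8 genes (15.8% of all genes) passed an adjusted p of 0.05. The largest of the 8 was *PFKFB3* (0.31 ± 0.04, adjusted p = 4.68e-06), followed by *PC* (-0.24), *HK2* (0.24) and *SLC16A3* (-0.24). Against the 2 sgKDM5D populations, *SLC2A3* was 1.71-fold higher (0.78 ± 0.06, 6.93e-11) and *SLC16A3* 1.55-fold lower (-0.63 ± 0.04, 5.41e-12) in the mean of the double mutants. Of all genes, 6.52% were higher and 6.44% lower. *SLC2A3* averaged 47.65 and 36.4 CPM in the double mutants with sgKDM5C_5 and 15.46 and 11.37 in those with sgKDM5C_4. It averaged 15.71 in sgKDM5D_2 and 11.97 in sgKDM5D_4. The *SLC16A3* call was lost without sgKDM5D_2 replicate 2. That of *SLC2A3* was lost once the median of its neighbours (0.35) was subtracted, which left 0.425. 24 of the 31 genes and 52.9% of all genes passed an adjusted p of 0.05 in that comparison, among them *PC* (-0.50), *ALDOA* (0.44), *PDK1* (0.40), *PDHB* (-0.35) and *PFKFB3* (0.35). *PC* averaged 11.5 and 9.74 CPM in the double mutants with sgKDM5C_4, 25.3 and 19.2 in those with sgKDM5C_5, and 21.7 and 21.4 in sgKDM5D_2 and sgKDM5D_4. The 2 sgKDM5D populations differed from each other in *ALDOA* (2083 in sgKDM5D_2 and 1176 in sgKDM5D_4) and *PDHB* (33.7 and 59.3). The interaction, the departure of the double mutants from the sum of the single effects, gave 0 calls by edgeR and by DESeq2 (3.21% of all genes were called higher and 3.67% lower), with 18 and 19 unadjusted p-values under 0.05 by the respective tool and 12 genes at an adjusted p under 0.05 (26.5% of all genes). *ENO2* (0.52, adjusted p = 9.43e-05) and *PC* (-0.51, 0.000655) were the largest of these after *ALDOC* (0.67, 0.0385). *ENO2* was called without sgCtrl replicate 2 or the 4 libraries. The interaction averages over guides, and *ENO2* differed between them. It averaged 38.7 and 34.3 CPM in the double mutants with sgKDM5C_4 and 86.8 and 71.9 in those with sgKDM5C_5. Its averages were 42.8 in sgKDM5C_4, 48.9 in sgKDM5C_5, 58.7 in sgKDM5D_2, 45.2 in sgKDM5D_4 and 62.8 in sgCtrl.

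Levels were also sorted by the guide that a library carries, as a description without a test, since the 9 libraries of a guide come from 3 populations. The 9 libraries with sgKDM5C_4 did not overlap the other 18 for 3 of the 31 genes, all lower: *PC* (9.57 to 14.6 CPM against 15.7 to 26.5), *PFKFB2* (7.58 to 12.4 against 13.2 to 22.4) and *ENO2* (31.6 to 43 against 43.2 to 98.8). Of all tested genes, 0.835% did not overlap in either direction. Those with sgKDM5C_5 did not overlap the others for *SLC2A3* (25.7 to 51.0 against 10.6 to 16.9 CPM), 1 of 31, as for 1.03% of all genes. For sgKDM5D_2 and sgKDM5D_4 it was 0 of 31 genes, against 0.0118% and 0.094% of all genes.

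Of 51 further genes of these pathways, which were listed with earlier results known, 50 were matched and 37 tested. 22 were called in at least 1 of the 8 comparisons and 9 in 2 or more, beside the 32.4% and 13.8% of all tested genes. Regulators of pyruvate dehydrogenase were among them. *PDK4*, a kinase gene that inhibits the complex, was lower in 7 populations (log2 -1.15 to -3.28), at 1.95 ± 0.205 CPM in sgCtrl and 0.192 ± 0.14 in sgKDM5C_5_sgKDM5D_4, levels of few counts. *PDK2*, of the same family, was lower in 6 (-0.86 to -1.22), at 12.6 ± 1.29 CPM in sgCtrl and 5.38 ± 0.889 in sgKDM5C_4. *PDP1*, the opposing phosphatase, was higher in 3, the most in sgKDM5D_4 (1.19 ± 0.13, adjusted p = 2.45e-08).

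Some further genes were called in several populations. The muscle enolase gene *ENO3* was higher in 5 (0.80 to 1.13), at 1.84 CPM in sgCtrl and 4.07 in sgKDM5C_4_sgKDM5D_4. *H6PD*, the endoplasmic reticulum enzyme of the pentose phosphate route, was higher in 5 (0.70 to 1.49), and the mitochondrial phosphoenolpyruvate carboxykinase gene *PCK2* in 4 (0.66 to 1.37), with the highest value of each in sgKDM5C_5_sgKDM5D_2 (adjusted p = 1.16e-08 and 6.23e-09). *SLC37A4*, the glucose-6-phosphate translocase gene, was lower in sgKDM5C_5 (-0.77) and sgKDM5C_5_sgKDM5D_4 (-0.78), and the glucose transporter gene *SLC2A10* in sgKDM5D_4 (-1.46) and sgKDM5C_5_sgKDM5D_4 (-0.74). Over the 37 genes, the number called higher and lower was 4 and 4 in sgKDM5C_4 (3.21% and 1.77% of all tested genes) and 1 and 3 in sgKDM5C_5 (2.03% and 2.97%). It was 1 and 0 in sgKDM5D_2 (1.89% and 1.34%) and 4 and 6 in sgKDM5D_4 (10.7% and 7.44%). The double mutants had 1 to 4 and 3 to 6 (3.3% to 7.92% and 2.23% to 4.77%).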

How the data were processed

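Libraries had been made from total RNA with a stranded kit, read in pairs on a NovaSeq, and per the labels processed with Trimmomatic 0.38 and STAR 2.5.2b on GRCh37. The counting tool, its strand setting and the annotation are not given in the sources used here. The authors deposited raw counts per Ensembl gene, without normalization; these whole numbers were used as they stand. Symbols and positions came from a table of gene names and GENCODE v44 lifted to GRCh37, which held 55538 of 57773 identifiers.

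After TMM scaling, edgeR 4.0.16 (R 4.3.3) was used to fit 1 mean for each of 9 populations, over the 17016 genes with a sum of at least 120 counts. P-values of the two-sided quasi-likelihood F test were adjusted over all tested genes by Benjamini-Hochberg. CPM are TMM-scaled. Alternatives included other scaling, filters and thresholds, DESeq2 1.42.0, a block for the replicate number, and each library left out.

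The members, gene lists and tests were chosen with earlier results of these data known. Every member is named; those given in full are the 8 with the largest changes and GAPDH, and members called in both populations of a single genotype or all double mutants. Further pathway genes are named where called in at least 2 comparisons. Some of these are not reported here.

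Replicate numbers did not pair the libraries: over 108 pairs with the same number, deviations from the population means correlated at -0.735 to 0.733. The biological coefficient of variation was 0.0973. Replicates differed by more than sampling noise in every population (chi-square per degree of freedom of 3.77 or more). Promoter sequences are from RefSeq.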

Additional observations from a re-analysis of the deposited data

Results flagged for a closer look

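6 differences between the 2 guides of a gene were set apart, because the effects of guides meant to give the same genotype differed by edgeR's quasi-likelihood test. Between sgKDM5C_5 and sgKDM5C_4 these were *SLC2A3* (log2 difference 0.92) and *PC* (0.69), each higher in all 3 libraries of sgKDM5C_5. Between sgKDM5D_4 and sgKDM5D_2 these were *PFKFB4* (1.18) and *PDHB* (0.82), higher in all 3 libraries of sgKDM5D_4, and *ALDOA* (-0.82) and *ALDOC* (-1.94), lower in all 3. The median difference of the 50 nearest tested genes was 0.15 for *SLC2A3*, 0.000223 for *PC*, 0.46 for *PFKFB4*, 0.31 for *PDHB*, -0.53 for *ALDOA* and 0.35 for *ALDOC*. With it subtracted, *ALDOA* and *PDHB* were under the 1.5-fold threshold. The cause of these differences was not tested.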

How the results depend on the processing

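No result changed direction, among the called genes and the alternatives run. Over the 8 comparisons with sgCtrl, the 22 calls became 21 with RLE factors, no filter, filterByExpr, the replicate block or DESeq2, 17 when only the populations compared were fitted, 14 after the neighbourhood median was removed, 24 with a term for the 4 highest-scoring libraries and 23 without them (both added after seeing the data), and 6 at an adjusted p under 0.05 and over 2-fold. The count of sgKDM5C_5 went from 2 to 1, through the loss of *PFKFB4*, with the replicate block, RLE factors, no filter, filterByExpr, DESeq2, the fit of only the populations compared and the term for the 4 libraries, and the replicate block changed no other of the 13 counts. The numbers do not pair the libraries, and 2 of 27 correlate best with their own.

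At an adjusted p under 0.05 with no minimum change the counts were, in the order of the report, 12, 11, 11, 17, 12, 15, 20 and 12 against sgCtrl, 11 and 21 between guides, 8 and 24 for the double mutants against sgKDM5C and sgKDM5D, and 12 for the interaction. Over 2-fold, they were 1 in sgKDM5C_5, 2 in sgKDM5D_4, 0 in sgKDM5C_4_sgKDM5D_2 and sgKDM5C_4_sgKDM5D_4, 1 in sgKDM5C_5_sgKDM5D_2, 2 in sgKDM5C_5_sgKDM5D_4, 0 and 2 between the *KDM5C* and the *KDM5D* guides, and 0 for the double mutants against sgKDM5D. After the neighbourhood median was removed, which changes the size and not the p, they were 1 (sgKDM5C_5), 2 (sgKDM5D_4), 3 (sgKDM5C_4_sgKDM5D_2), 3 (sgKDM5C_4_sgKDM5D_4), 2 (sgKDM5C_5_sgKDM5D_2), 3 (sgKDM5C_5_sgKDM5D_4), 4 (*KDM5D* guides) and 1 (double mutants against sgKDM5D). *SLC16A3* was lost in all 4 double mutants and *SLC2A3* in the last comparison, *PFKL* was gained in sgKDM5C_5_sgKDM5D_2, and between the *KDM5D* guides *ALDOA* and *PDHB* were lost and *TPI1* and *SLC16A3* gained. With only the populations compared, 2 remained in sgKDM5C_4_sgKDM5D_2, without *ENO2* and *PC*, and 1 between the *KDM5C* guides, without *PC*. *ALDOC* was lost in sgKDM5D_4 and *PFKFB2* in sgKDM5C_4_sgKDM5D_4. Such fits have fewer libraries. The term for the 4 libraries, and leaving them out, each gave 1 in sgKDM5C_4 (*ENO2*) and 4 in sgKDM5C_5_sgKDM5D_2 (*PFKFB2* and *PDK1* added); leaving them out gave 1 for the interaction (*ENO2*).

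With each library left out in turn, the counts ranged from 0 to 1 (sgKDM5C_4), 1 to 2 (sgKDM5C_5), 0 (sgKDM5D_2), 4 (sgKDM5D_4), 3 to 4 (sgKDM5C_4_sgKDM5D_2), 4 to 5 (sgKDM5C_4_sgKDM5D_4), 2 to 4 (sgKDM5C_5_sgKDM5D_2) and 4 to 5 (sgKDM5C_5_sgKDM5D_4), 1 to 2 and 4 between the *KDM5C* and the *KDM5D* guides, 0 and 1 to 2 for the double mutants against sgKDM5C and sgKDM5D, and 0 to 1 for the interaction. The rise to 4 in sgKDM5C_5_sgKDM5D_2 came without sgCtrl replicate 2 (*PFKFB2* and *PDK1* added) and without its own replicate 3 (*PFKL* and *ENO2* added). *ALDOC* had the fewest counts, 15 in the lowest library, and the widest error.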
